A study of Homo sapiens with 6 samples.

Results

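The translation elongation factors are the proteins that carry the ribosome from codon to codon. Examined here were 8 genes named for them: EEF1A1, EEF1A2, EEF1B2, EEF1D, EEF1G, EEF1E1, EEF2 and EEF2K. All are called elongation factor genes below, although EEF2K encodes a kinase of eEF2 and EEF1E1 a scaffold protein of tRNA synthetases. The 8 were chosen by name, through probe sets (groups of short probes for the same transcript). Used were those that the array annotation assigns to a single listed gene. Of the 8 genes, 5 had probe sets of their own, 15 in all among the 54613 probe sets of the array and among 19775 genes named in this way. EEF1B2 and EEF1G were named only together with another gene, on 4 probe sets, and EEF1E1 was named by none of the probe sets used here.

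RNA was compared between LP-1, a human multiple myeloma (MM) cell line, and LP-1/Cfz, a derivative of it selected for resistance to carfilzomib, an inhibitor of the proteasome. Each group had 3 arrays. Per the labels, LP-1/Cfz cells were resistant to 12 nM carfilzomib and had been kept 1 week without the drug when RNA was taken, LP-1 cells were parental, and the medium of both held 4% serum. LP-1/Cfz is a single selected derivative, and the labels leave unsaid whether a group's samples were grown separately, so the p-values may reflect no more than technical spread among these samples.

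As background, elongation starts when eEF1A, bound to GTP, brings an aminoacyl-tRNA to the ribosome. The eEF1B complex, built from the products of EEF1B2, EEF1D and EEF1G, then exchanges the spent GDP of eEF1A for GTP. eEF2 moves the ribosome along the mRNA, and its kinase, encoded by EEF2K, phosphorylates it and thereby slows elongation. The 2 forms of eEF1A are nearly alike in sequence but differ in where they are made: EEF1A1 is expressed in almost all cells, whereas EEF1A2 is the usual form in skeletal muscle, heart and neurons. EEF1E1 encodes a scaffold protein of the complex of tRNA synthetases.

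EEF1A2 was far higher in LP-1/Cfz than in LP-1 cells, by 3.63-fold, and EEF2K was modestly higher, by 1.20-fold. EEF1A1, EEF1D and EEF2 did not pass the test, with fold changes whose 95% intervals all lay between 0.849 and 1.14. The 4 probe sets that name EEF1B2 or EEF1G with another gene did not pass it either. At an adjusted p under 0.05 in the limma fit over all genes, 2 of the 5 measured members were thus higher and 0 lower, and the same 2 were the members with an unadjusted p under 0.05. Over all genes 16.7% were called, 6.72% higher and 10.0% lower. The median log2 fold change of the 5 members was 0.068, beside 0.017 over all genes.

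The deposited values are on a log2 scale and centred for each probe set on an unnamed baseline. They can therefore be compared between arrays for a gene, but the level of one gene cannot be set against that of another, and 0 does not mean absence.

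For EEF1A2, measured by probe set 204540_at, the log2 values were 1.39, 1.54 and 1.58 on the 3 LP-1 arrays. On the LP-1/Cfz arrays they were 3.34, 3.39 and 3.36. The groups were far apart, and the LP-1/Cfz arrays lay closer together than the parental ones. The means were 1.50 ± 0.10 in LP-1 and 3.37 ± 0.027 in LP-1/Cfz (SD, n = 3 each). The log2 fold change was 1.86 ± 0.062 (SE, 95% interval 1.72 to 2.01, adjusted p = 1.67e-06). This was the rise of rank 3 among all genes, after RTL5 and P2RY6, the latter also at a log2 fold change of 1.86. The difference was called whichever of the 6 arrays was omitted, at adjusted p = 1.17e-05 to 4.63e-05. The study itself picked out EEF1A2 on these arrays, so that its direction here is not independent evidence. Beyond the arrays, the study reports checking selected genes in LP-1/Cfz cells by quantitative RT-PCR, and its listed primers include EEF1A2. In bulk RNA, more cells that express a gene and more of its mRNA per cell cannot be told apart.

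**Figure D1:**
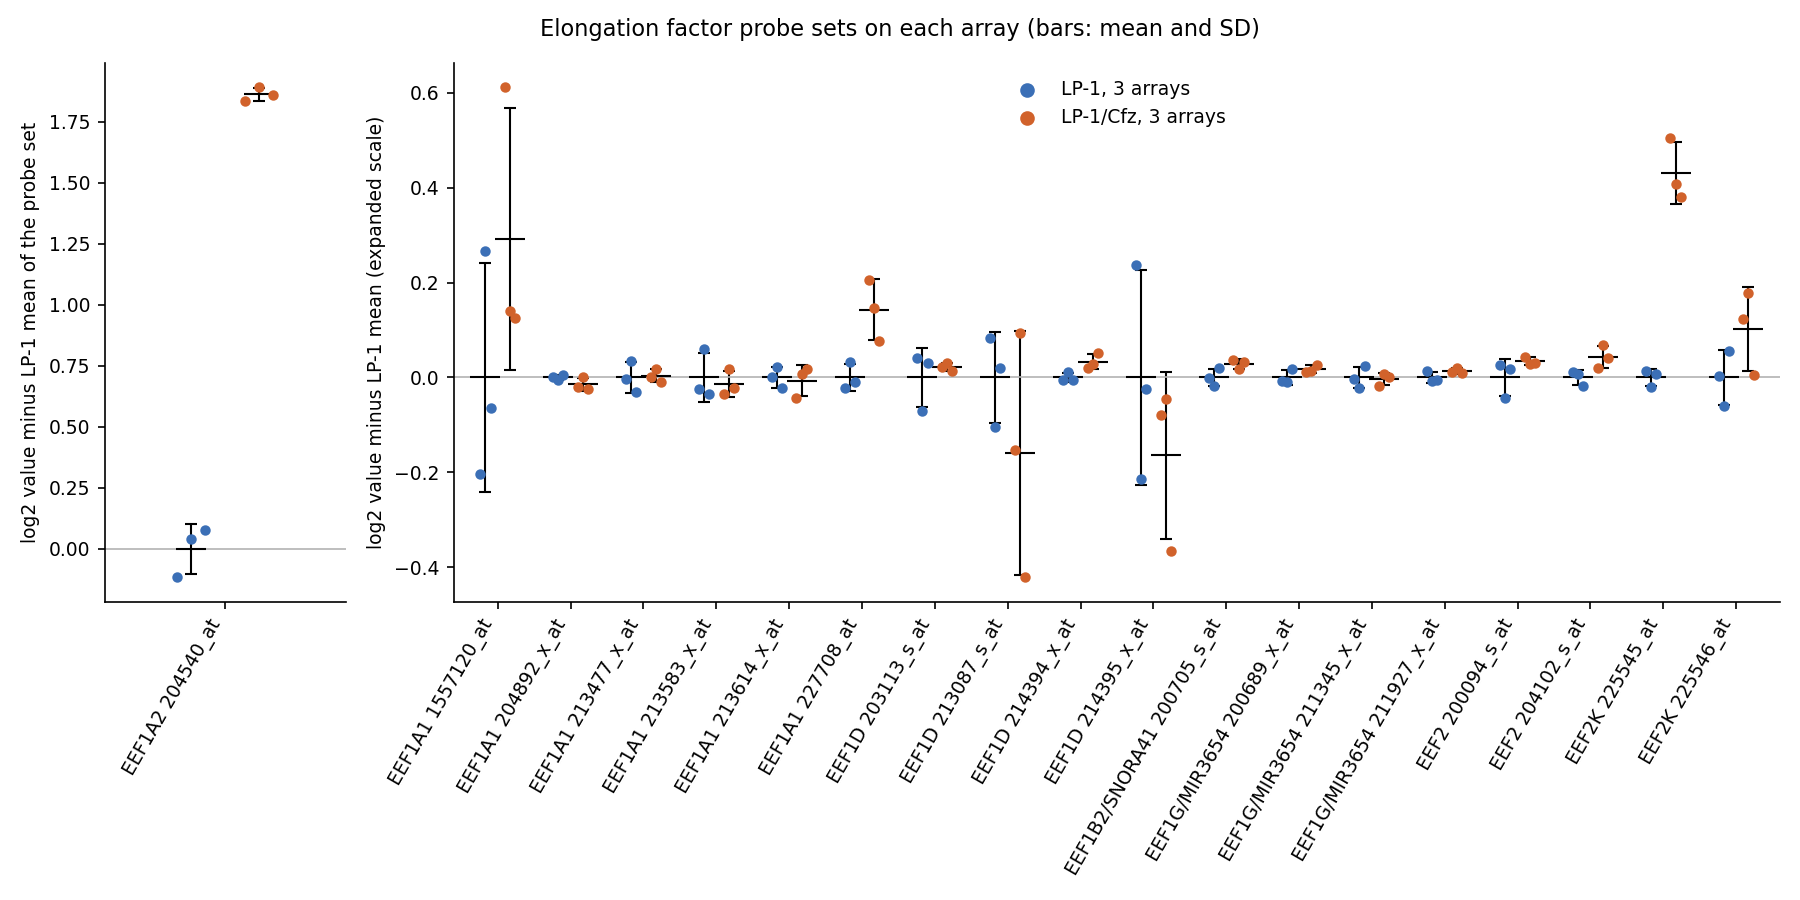
Log2 value on each array, set relative to the parental mean, for each probe set that names an elongation factor gene, alone or with another gene, with EEF1A2 on the left and the others on the right at an expanded scale. Points are arrays (blue LP-1, orange LP-1/Cfz, 3 each), and bars give the mean and SD: EEF1A2 stands 1.86 above its LP-1 mean, whereas the group means of the other probe sets differ by at most 0.43, that of EEF2K 225545_at.

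EEF1A1, the ubiquitous form, had mean log2 values over its 6 probe sets of 0.048, 0.16 and 0.064 in LP-1. In LP-1/Cfz they were 0.21, 0.15 and 0.12, so that the groups overlapped. The log2 fold change was 0.067 ± 0.054 (SE, 95% interval -0.058 to 0.19, adjusted p = 0.46).

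The probe sets of EEF1A1 did not all read alike. In 4 of them, with names that end in _x_at (a mark of probes that can match other transcripts), all 6 arrays lay between 0.0071 and 0.13, and the log2 fold changes ran from -0.014 to 0.0035. RefSeq lists 50 numbered pseudogenes of EEF1A1, so that signal from near-identical copies cannot be told apart on such probe sets. The remaining 2 probe sets were somewhat higher in LP-1/Cfz without passing the test. Probe set 227708_at gave 0.20, 0.25 and 0.21 in LP-1 against 0.42, 0.37 and 0.30 in LP-1/Cfz. These groups did not overlap, with a log2 fold change of 0.14 ± 0.062 (SE, adjusted p = 0.21). Probe set 1557120_at scattered more, between -0.14 and 0.68, and its groups overlapped, at a log2 fold change of 0.29 ± 0.16 (SE, adjusted p = 0.32). Without the _x_at probe sets the log2 fold change of the gene was 0.22, and it did not pass the test.

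The gap between the 2 forms of eEF1A was read on each array as EEF1A2 minus EEF1A1. Because of the centring, its change is meaningful but not its size on an array. It was 1.34, 1.39 and 1.51 in LP-1 and 3.13, 3.25 and 3.25 in LP-1/Cfz. The gap was thus wider on every resistant array than on any parental array. Its means were 1.41 ± 0.091 and 3.21 ± 0.068 (SD, n = 3 each), a difference of 1.79. This difference was 1.64 without the _x_at probe sets and 1.93 when the values were quantile normalized again. Against EEF2K, EEF2 and EEF1D the gap widened by 1.59, 1.82 and 1.93. The groups were separate in all 4 of these comparisons. In each, the two-sided exact permutation test gave p = 0.1, the smallest that 3 against 3 arrays allow. Benjamini-Hochberg adjustment over the 4 left it at 0.1. All 4 share EEF1A2, whose own log2 fold change of 1.86 far exceeds those of the other genes. The comparisons therefore restate its rise and are not 4 independent tests.

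**Figure D2:**
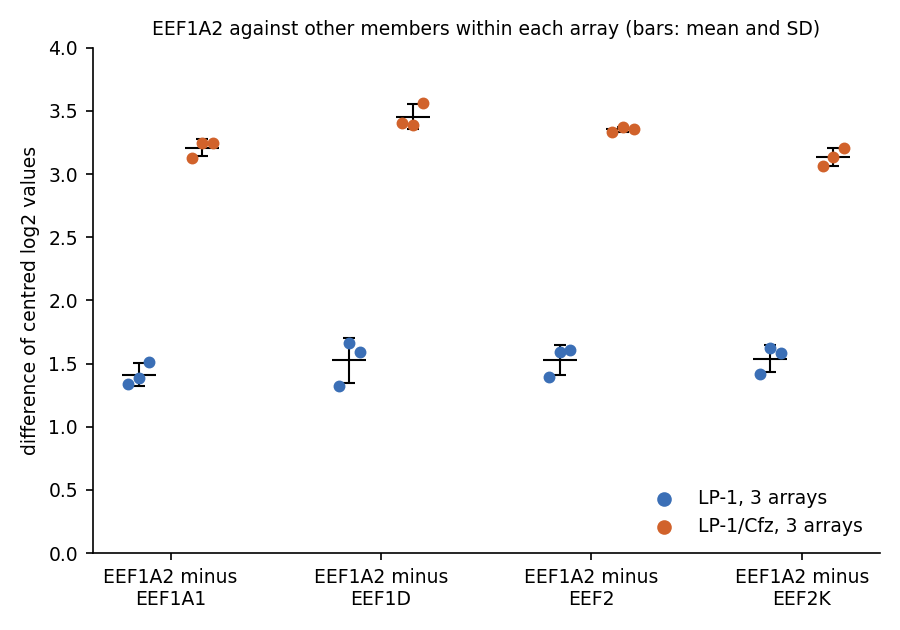
Centred log2 value of EEF1A2 minus that of EEF1A1, EEF1D, EEF2 or EEF2K on each array; points are arrays (blue LP-1, orange LP-1/Cfz, 3 each) and bars give the mean and SD. In all 4 comparisons the LP-1/Cfz arrays lie above the LP-1 arrays, by 1.59 to 1.93 between the means.

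Among the genes of the exchange factor complex, EEF1D had 4 probe sets of its own. Its mean log2 values were 0.068, -0.12 and -0.016 in LP-1. In LP-1/Cfz they were -0.069, 0.0055 and -0.20. The groups overlapped, with a log2 fold change of -0.067 ± 0.073 (SE, 95% interval -0.24 to 0.10, adjusted p = 0.59). The probe sets pointed both ways, at 0.023 and 0.033 for 203113_s_at and 214394_x_at and at -0.16 for both 213087_s_at and 214395_x_at. Probe set 213087_s_at was lowest on the array of LP-1/Cfz replicate 3, at -0.51 against -0.24 and 0.0047 on the other LP-1/Cfz arrays.

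EEF1G, the subunit that anchors the complex, was named on 3 probe sets together with MIR3654, a microRNA gene that RefSeq places on chromosome 7 while EEF1G lies on chromosome 11. All 6 arrays lay between 0.142 and 0.202 on these probe sets, and the log2 fold changes ran from -0.0033 to 0.017 with 95% bounds of -0.13 to 0.15. EEF1B2, the catalytic exchange factor, was named on probe set 200705_s_at together with SNORA41, a small nucleolar RNA gene that lies inside it. That probe set read 0.25, 0.23 and 0.27 in LP-1 and 0.29, 0.27 and 0.29 in LP-1/Cfz. The groups overlapped, with a log2 fold change of 0.029 ± 0.056 (SE, adjusted p = 0.81). RefSeq lists 8 numbered pseudogenes each for EEF1B2, EEF1D and EEF1G, and 0 for EEF1A2, EEF2 and EEF2K.

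EEF2, the translocation factor, had mean log2 values over its 2 probe sets of -0.0076, -0.046 and -0.027 in LP-1 and of 0.0054, 0.021 and 0.0094 in LP-1/Cfz. The groups did not overlap, yet the shift was small, with a log2 fold change of 0.039 ± 0.045 (SE, adjusted p = 0.62). The 95% interval of the fold change was 0.956 to 1.10. Both probe sets read alike, at 0.034 and 0.043.

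EEF2K, the kinase of eEF2, was higher in LP-1/Cfz cells. Its mean log2 values were -0.028, -0.077 and -0.0043 in LP-1 and 0.28, 0.26 and 0.16 in LP-1/Cfz. All resistant arrays lay above all parental ones. The log2 fold change was 0.27 ± 0.054 (SE, 95% interval 0.14 to 0.39, adjusted p = 0.0127).

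The call of EEF2K came from 1 of its 2 probe sets. Probe set 225545_at read -0.050, -0.084 and -0.055 in LP-1 and 0.44, 0.34 and 0.32 in the resistant line, which is a rise of 0.43 ± 0.062 on the log2 scale (SE, adjusted p = 0.00393). Probe set 225546_at read -0.0059, -0.069 and 0.047 in LP-1 and 0.11, 0.17 and -0.0043 in LP-1/Cfz. There the groups overlapped, and the log2 fold change was 0.10 ± 0.070 (SE, adjusted p = 0.44). Without LP-1 replicate 2 the gene no longer passed the test (log2 fold change 0.25, adjusted p = 0.0559), whereas probe set 225545_at passed in all 6 fits that left out 1 array. Which of the probe sets reads the gene better was not tested.

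**Figure D3:**
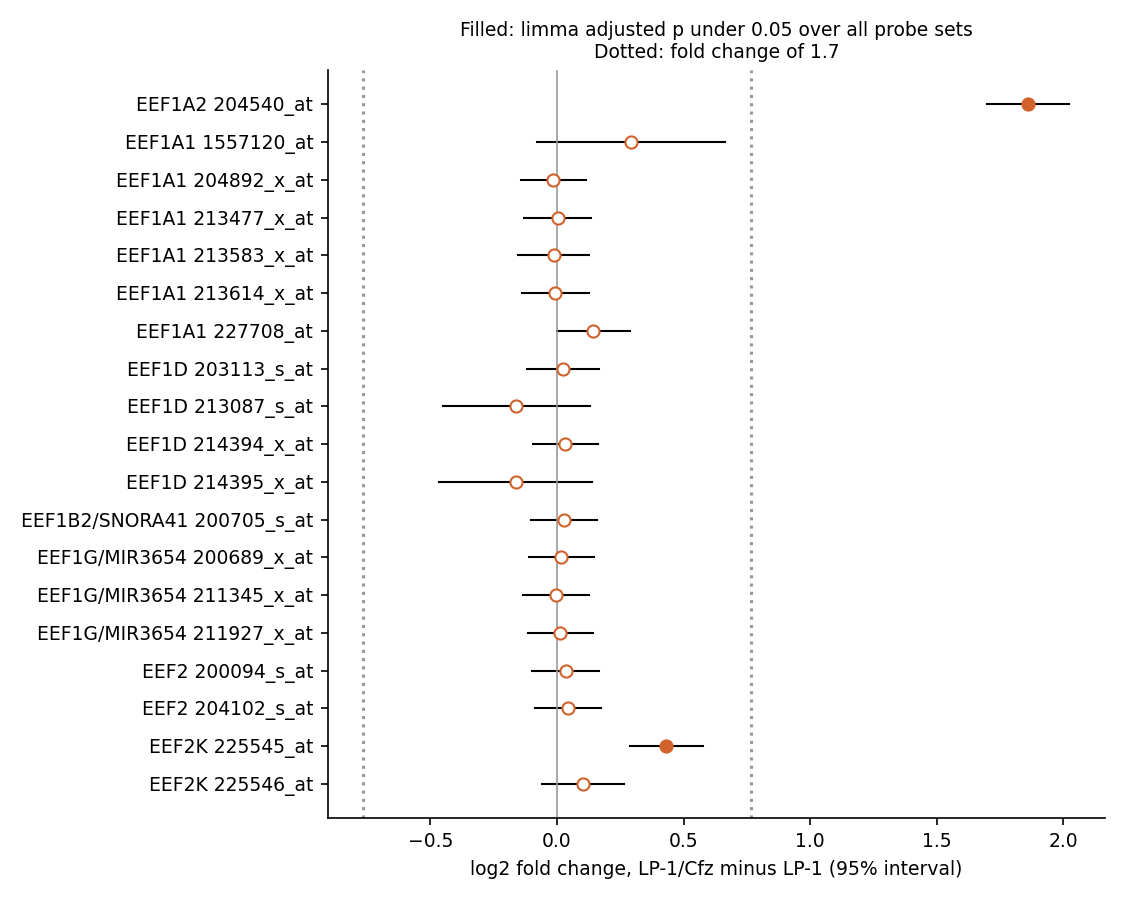
Log2 fold change, LP-1/Cfz minus LP-1, of each probe set that names an elongation factor gene, alone or with another gene; points are limma estimates from 3 against 3 arrays, filled where they passed the test, lines are 95% intervals, and dotted lines mark a fold change of 1.7. The probe set of EEF1A2, at 1.86, and EEF2K probe set 225545_at, at 0.43, passed, and the intervals of the other probe sets include 0.

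Over single probe sets, 2 of the 15 of the members were called, those of EEF1A2 and EEF2K probe set 225545_at, beside 11.0% of all probe sets. At a fold change of 1.7 or more, which 1.59% of all probe sets reached in either direction, 1 of the 15 stood, that of EEF1A2. In 6 of the 15 the groups did not overlap, beside 30.7% of all probe sets in either direction. All 6 had LP-1/Cfz higher. The share of all probe sets with that direction was not counted, so nothing was read from it. The 6 were the probe set of EEF1A2, both of EEF2, and 1 each of EEF1A1, EEF1D and EEF2K.

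Around the elongation factors, 57 genes of the translation machinery in 8 lists were examined, of which 47 were measured. Of these, 4 were higher, 5 were lower and 38 did not pass the test, with a median log2 fold change of -0.041. The called share, 19.1%, was near the 16.7% of all genes. The lists were written by hand from general knowledge. Single lists hold few genes, and nothing was read from their counts.

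Among the genes for enzymes that act on eEF1A and eEF2, the methyltransferases moved both ways, with 2 of 5 measured genes higher and 1 lower. EEF2KMT, which methylates eEF2, read -0.097, -0.10 and -0.059 in LP-1 and 0.47, 0.49 and 0.27 in LP-1/Cfz. It rose by 0.50 on the log2 scale (adjusted p = 0.00222), on a single probe set whose name ends in _x_at. EEF1AKMT3, which methylates eEF1A, rose by 0.30 (adjusted p = 0.0148), a call that was lost without LP-1 replicate 1 or without LP-1 replicate 2 (adjusted p = 0.0635 and 0.0632). EEF1AKMT2, another methyltransferase of eEF1A, had a log2 fold change of -0.44 (adjusted p = 0.00116). Its 3 probe sets did not read alike, at -0.703, -0.581 and -0.027, the last not passing (adjusted p = 0.84). Of the enzymes that make diphthamide, the modified histidine of eEF2, 2 of 6 were lower and 0 higher. With 10.0% of all genes called lower, 2 of 6 is no result about these enzymes. DPH5 changed by -0.27 on the log2 scale (adjusted p = 0.00974) and DPH7 by -0.20 (adjusted p = 0.0427), the latter not passing in any of the 6 fits that left out 1 array (adjusted p = 0.0578 to 0.159). Among the 4 genes of eIF5A, an elongation factor that bears hypusine, and of the enzymes that make hypusine, 0 were called.

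Of 7 measured regulators of EEF2K, 1 was higher and 0 lower. RPS6KA1, a kinase that phosphorylates and restrains eEF2K, read -0.65, -0.72 and -0.65 in LP-1 and -0.061, -0.010 and -0.30 in LP-1/Cfz. The groups were well apart, at a log2 fold change of 0.55 ± 0.079 (SE, adjusted p = 0.0027). The genes of the AMPK catalytic subunits, of the S6 kinase, of the phosphatase subunits and of the ubiquitin ligase subunit BTRC did not pass.

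HBS1L, which helps to free stalled ribosomes, had the largest change of the 47 genes. It read 0.62, 0.59 and 0.58 in LP-1 and -0.19, -0.19 and -0.19 in LP-1/Cfz. These are means over 4 probe sets. They lay close together, and the log2 fold change was -0.79 ± 0.045 (SE, adjusted p = 2.83e-05). Single probe sets scattered more and did not read alike. Those called had log2 fold changes of -1.006, -1.045 and -0.929. The probe set at -1.006 read -0.402, -0.255 and -0.403 in LP-1/Cfz. The remaining probe set did not pass, at -0.164 (adjusted p = 0.29), and its groups overlapped. The other 7 genes of termination, recycling and rescue did not pass. Of 6 genes of selenocysteine elongation, SEPHS1, of the selenophosphate synthetase family, was lower, at a log2 fold change of -0.43 (adjusted p = 0.00151), and 0 were higher. Of 4 mitochondrial elongation factors, TUFM, the mitochondrial counterpart of eEF1A, was higher by 0.18 on the log2 scale (adjusted p = 0.0371), but omitting 1 array ended the call in 5 of 6 cases (adjusted p = 0.0921 to 0.122 there). Among 7 measured tRNA synthetases and partners of eEF1 and EEF1E1, 0 were called.

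**Figure D4:**
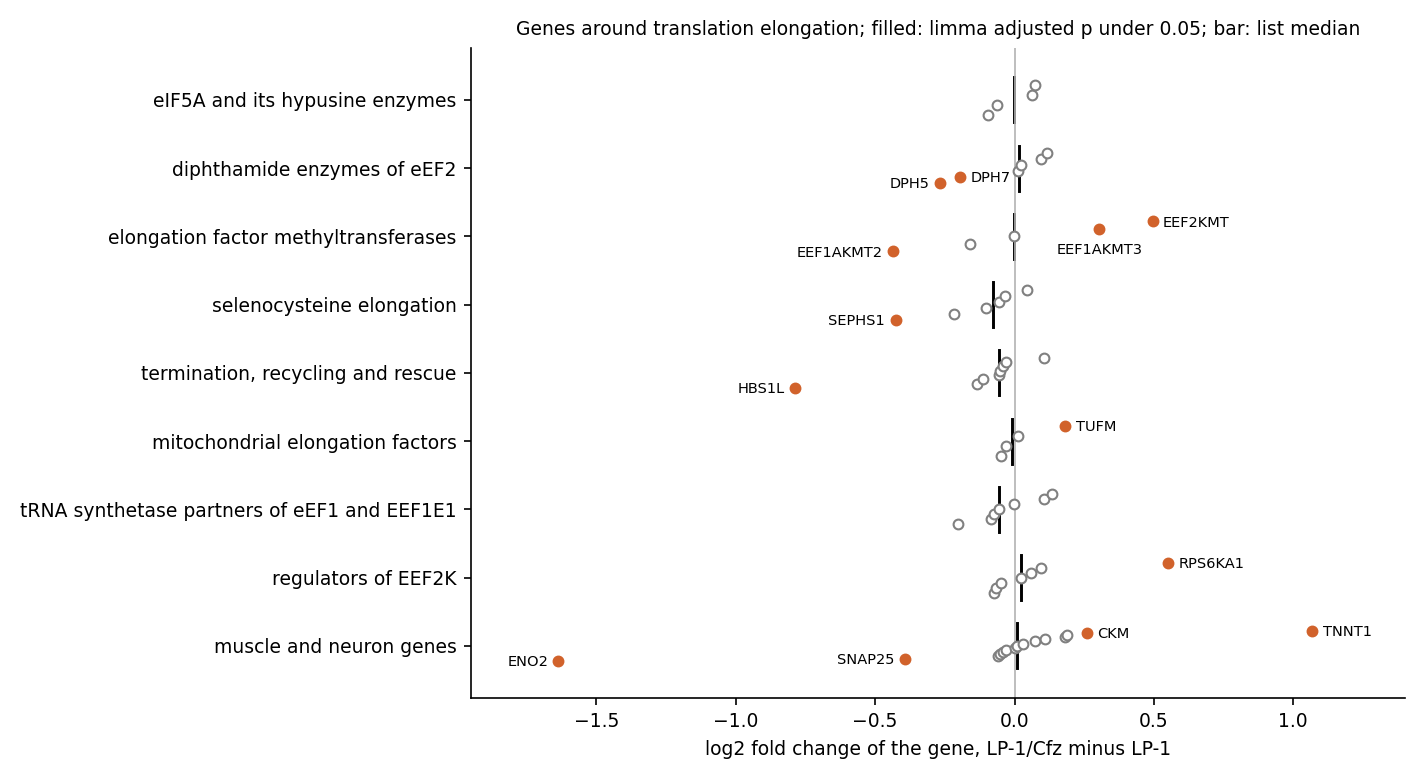
Log2 fold change, LP-1/Cfz minus LP-1, of each measured gene in 9 lists around translation elongation; filled points passed the limma test at an adjusted p under 0.05, and the vertical bars are list medians. Most genes lie near 0, with HBS1L at -0.79 and ENO2 at -1.64 the lowest and TNNT1 at 1.07 the highest.

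Because EEF1A2 is the usual form in muscle and neurons, 15 genes typical of these tissues were read beside it. Of these, 2 were higher and 2 lower, with a median log2 fold change of 0.0073. These 4 calls are 26.7% of the list, beside 16.7% over all genes, and with 15 genes nothing was read from the count. TNNT1, troponin T of slow skeletal muscle, read -0.069, 0.069 and -0.081 in LP-1 and 1.07, 1.05 and 1.00 in LP-1/Cfz. It rose by 1.07 on the log2 scale (adjusted p = 2.18e-05). CKM, the muscle creatine kinase, rose by 0.26 (adjusted p = 0.0109), a call that was lost without LP-1 replicate 3 (adjusted p = 0.0542). The neuronal enolase ENO2 and the synaptic gene SNAP25 were lower, at log2 fold changes of -1.64 (adjusted p = 0.0012) and -0.39 (adjusted p = 0.00149). The other 11 genes, myosins, neurofilaments and tubulin TUBB3 among them, did not pass.

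EEF1A2 lies near the end of the long arm of chromosome 20. In the gene order of RefSeq (GRCh38.p14), the 5 measured genes on either side of it had log2 fold changes from -0.11 to 0.57, with a median of 0.14. Of the 10, 1 was higher and 0 lower. This was PPDPF, the next measured gene, which read -0.22, -0.18 and -0.15 in LP-1 and 0.46, 0.45 and 0.23 in LP-1/Cfz. It rose by 0.57 ± 0.072 on the log2 scale (SE, adjusted p = 0.00153), and its 3 probe sets all end in _x_at. The rise of EEF1A2 exceeded that of each of the 10 neighbours. A rise of rank 3 among all genes would do so beside almost any genes, so this says nothing particular about the neighbourhood. Around EEF1A1 on chromosome 6, 2 of 10 neighbours were higher, SLC17A5 at 0.68 and OOEP at 0.23, and 0 were lower. With 6.72% of all genes called higher, counts of 1 and 2 in 10 are no result about either neighbourhood.

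**Figure D5:**
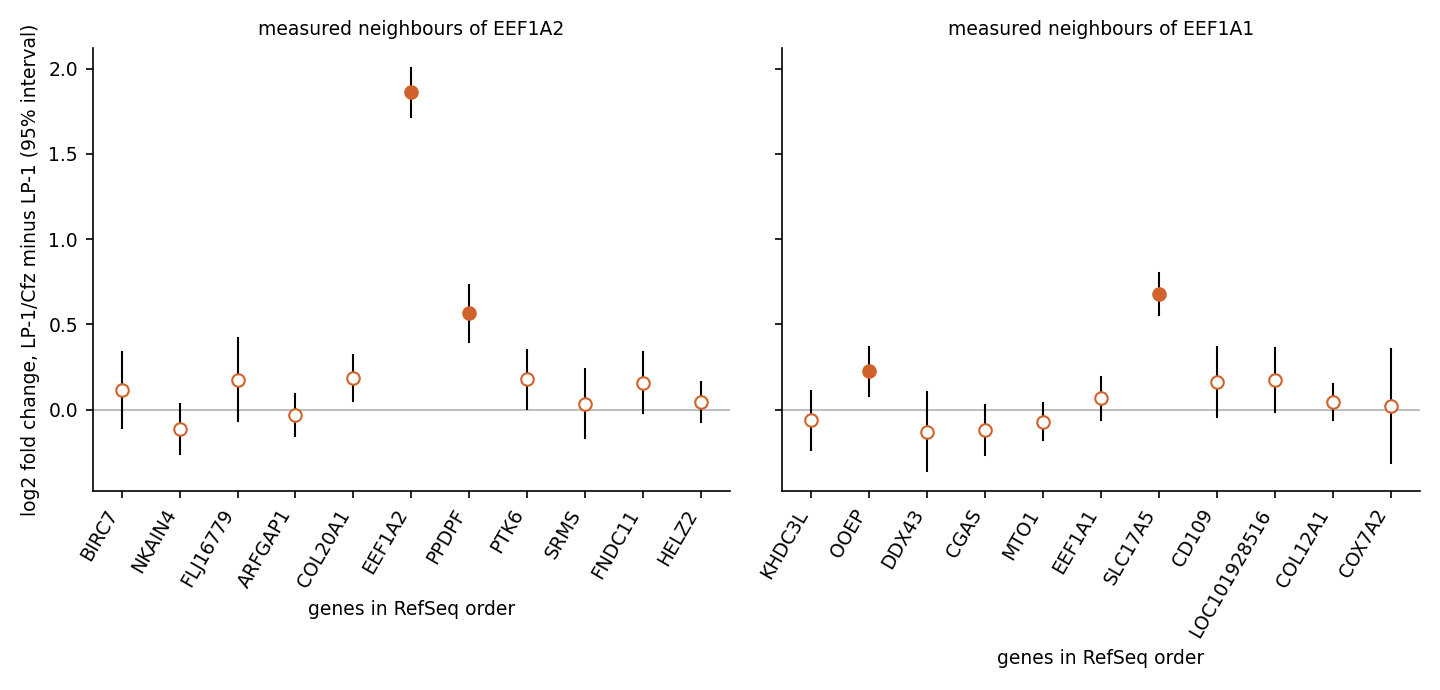
Log2 fold change, LP-1/Cfz minus LP-1, with 95% intervals, of EEF1A2 and EEF1A1 and of the 5 measured genes on each side of them, in gene order; filled points passed the test. EEF1A2 stands at 1.86 among neighbours of -0.11 to 0.57, and EEF1A1 at 0.067 among neighbours of -0.13 to 0.68.

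The genes whose pattern over the 6 arrays was most like that of EEF1A2 were RTL5 (Pearson r = 0.9997), TMEM164 (0.9988), F12 (0.9985), BMPR2 (0.9985) and ANK2 (0.998). Their log2 fold changes were 2.51, 0.80, 0.54, 0.52 and 0.60. The arrays form 2 groups, so that any gene that separates them with little scatter comes close, and 126 genes had an r above 0.99.

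LP-1/Cfz replicate 3 stood apart from the other arrays, with a wider spread of values (interquartile range 0.338 against 0.23 to 0.264). Without it the log2 fold change was 1.86 for EEF1A2 (adjusted p = 2.82e-05) and 0.30 for EEF2K (adjusted p = 0.00775), so that both calls stood. Of 8 plasma cell markers, 3 were higher, SDC1, TNFRSF17 and MZB1, at log2 fold changes of 0.38, 0.27 and 0.39. The 1 lower was CD38, at -1.07 (adjusted p = 2.09e-05), a larger change than any of these rises, so that the markers moved both ways. GNLY, which was lower at -0.30, was the 1 called gene of 17 measured for stromal, myeloid, T and NK cells. Over all genes 16.7% were called, and nothing was read from the counts of the markers. Their summed log2 values ranged in LP-1 from 2.23 to 2.40 for plasma cell markers, 0.0911 to 0.108 for T and NK, 0.138 to 0.149 for myeloid and 0.168 to 0.202 for stromal markers. In LP-1/Cfz they ranged from 2.41 to 2.85, -0.216 to 0.677, -0.5 to 0.355 and 0.236 to 0.685. The upper ends for T and NK, myeloid and stromal markers were those of LP-1/Cfz replicate 3, and the other LP-1/Cfz arrays read -0.173 and -0.216, -0.0834 and -0.5, and 0.236 and 0.259. Centred values cannot show which of these markers are absent, and their part in the results was not tested.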

How the data were processed

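Affymetrix human arrays were hybridised with RNA of LP-1/Cfz and of LP-1, 3 arrays each, grouped by the sample labels. The authors deposited log2 values, for which the submitters' processing notes name RMA, with every probe set centred on an unnamed baseline. Scale and direction were checked against the listed fold changes of the study. Background correction, a filter on dim probes and a scan batch could not be tried on such values. The number of arrays limits the precision.

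Of 54613 probe sets, 41091 name 1 gene, 1801 several and 11721 none. A gene is the mean of the probe sets that name it alone. The gene identifiers of 41037 of the 41091 matched RefSeq (GRCh38.p14), and 0 symbols were updated. No sequence is shown, since no protein or EEF1A2 promoter was in the reference used here.

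Groups were compared by limma 3.58.1 in R 4.3.3 (lmFit and eBayes, no covariate, two-sided, Benjamini-Hochberg over all 19775 genes or all probe sets), with a call at an adjusted p under 0.05. Differences between genes on the same array were compared by exact permutation (scipy 1.17.1). The fits were tested on simulated data. Alternatives were array weights, robust eBayes, a minimum fold change of 1.2, renewed quantile normalization, array medians set to 0, the median of probe sets, no _x_at probe sets, a replicate block, leaving out each array, and, chosen after seeing the data, each EEF2K probe set alone.

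The members and lists were chosen with earlier results of these data known. Named are all members, up to 5 called genes per direction in each list, called neighbours of EEF1A2 and the 5 genes most like it. Neighbours of EEF1A1, genes with a larger rise than EEF1A2 and called markers were named after their values were seen.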

Additional observations from a re-analysis of the deposited data

How the results depend on the processing

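EEF1A2 stayed called under every alternative run, at log2 fold changes of 1.80 to 1.97, and EEF1A1, EEF1D and EEF2 passed under none. EEF2K, at 0.27, was no longer called with a minimum fold change of 1.2 (0.267, adjusted p = 1) or from probe set 225546_at alone (0.102). With that minimum, 624 genes, 1 member gene, 3 genes of the lists, 0 neighbours of EEF1A2, 1312 probe sets and 1 member probe set were called, against 3312, 2, 13, 1, 6014 and 2. Array weights gave 2 called neighbours, and leaving out _x_at probe sets gave 0, since PPDPF has no other. Leaving out 1 array gave 2080 to 3183 called genes (2080 without LP-1 replicate 3, 2100 without LP-1 replicate 1 and 2157 without LP-1 replicate 2), 3395 to 5355 probe sets, 1 to 2 member genes and a log2 fold change of EEF2K of 0.243 to 0.303. Of the 5 genes most like EEF1A2, 2 were shared after renewed quantile normalization or with the median of probe sets, and 1 to 3 with 1 array left out. No result changed direction.

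Samples of the same replicate number did not deviate together in all 3 pairs (r of -0.0487, 0.126 and -0.00556), so that the numbers were not taken as pairs. With a replicate block, 2641 genes, 2 member genes, 11 genes of the lists, 1 neighbour, 4544 probe sets and 2 member probe sets were called, and EEF1A2 (adjusted p = 2.25e-05) and EEF2K (adjusted p = 0.0383) passed, while DPH7 (0.0961) and TUFM (0.0914) did not. Signal over background cannot be read from centred values, which limits what can be said of genes near 0.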

Other observations

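EEF1A2 lay above the baseline of the deposited values on every array, at 1.39 to 3.39 on the log2 scale, the parental LP-1 arrays included. The 14 other probe sets that name an elongation factor gene alone lay between -0.51 and 0.676. Over all genes, 216 (1.09%) lay more than 1 above the baseline on all 6 arrays. The origin of the baseline is unknown here, and these values say only that EEF1A2 was higher in LP-1 cells than in that baseline.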
